A study of Mus musculus with 12 samples.

Results

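The genes described are 58 splicing factor and hnRNP genes: all genes on the array whose symbol starts with Srsf, Sfrs, Hnrnp, Snrp, Sf3a, Sf3b or Prpf, out of 16593 named genes. They comprise 18 hnRNP genes, 11 genes of Sm and other snRNP proteins, 11 PRPF genes, 9 genes of the SF3a and SF3b complexes and 9 SR protein genes, and no symbol starting with Sfrs was present. Their RNA was measured in cultured mouse astrocytes that had been made from neural stem cells (line label Rosa25/OG2) by 4 days of differentiation with 10% fetal calf serum and 14 days of maturation. The study asked what small molecules found as hits do to astrocytes once these are activated. In all, 10 compounds known from the labels only by code were each given for 4 h to cells activated with 1 µg/ml LPS (lipopolysaccharide, a bacterial cell wall component) and 10 ng/ml IFN-γ (the type II interferon). The codes run E4, E5, E14 and E18, then E19, E20, E21 and E23, and last E29 with E33. The activated control received LPS and IFN-γ without a compound, and the non-activated control received neither stimulus nor compound. Doses and structures are not in the labels, which do not say whether cultures were pooled. Each of the 12 groups is 1 Illumina bead array, so no group has a replicate: no value has a measured error, and no difference between groups was tested.

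Splicing removes introns from nascent transcripts in the spliceosome, which is built from small nuclear ribonucleoproteins (snRNPs) and many accessory proteins. Sm proteins form the ring at the core of the snRNPs, the SF3a and SF3b complexes belong to the U2 snRNP and help it to hold the branch point, and PRPF proteins act in the assembly, activation and catalytic steps. SR proteins bind exons and mostly favour their inclusion, whereas hnRNP proteins coat nascent RNA and often oppose it. Several SR and hnRNP genes limit their own messages by alternative splicing coupled to nonsense-mediated decay, and glial cells, like other cells, use both families to set which isoforms they make.

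The stretches upstream of 4 members are shown. Prpf38a, Hnrnpdl and Srsf10 had the largest differences from the activated control, in either direction, on the array of compound E29. Srsf2 and Hnrnpdl stood at least 2-fold below the activated control on more than 1 compound array. Each stretch is the run of 250 bases that ends just before the annotated transcription start, written 5′ to 3′ on the gene's strand, from RefSeq on mouse build GRCm38.p6. They lie at chr4:108579337-108579586 on the minus strand (Prpf38a), chr5:100039223-100039472 on the minus strand (Hnrnpdl), chr11:116853095-116853344 on the minus strand (Srsf2) and chr4:135855821-135856070 on the plus strand (Srsf10). Capitals mark the GC box GGGCGG, the CCAAT box and TATAAA on either strand, so that CCGCCC and ATTGG are their reversed forms.
Prpf38a: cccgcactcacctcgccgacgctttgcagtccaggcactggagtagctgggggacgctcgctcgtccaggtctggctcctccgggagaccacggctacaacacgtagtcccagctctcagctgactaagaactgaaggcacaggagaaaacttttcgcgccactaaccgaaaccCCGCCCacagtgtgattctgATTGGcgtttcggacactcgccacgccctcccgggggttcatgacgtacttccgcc
Hnrnpdl: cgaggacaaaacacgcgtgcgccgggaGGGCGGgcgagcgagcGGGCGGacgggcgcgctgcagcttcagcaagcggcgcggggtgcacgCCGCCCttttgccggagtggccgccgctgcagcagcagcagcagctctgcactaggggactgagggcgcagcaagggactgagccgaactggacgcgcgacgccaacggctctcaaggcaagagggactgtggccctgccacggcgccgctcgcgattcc
Srsf2: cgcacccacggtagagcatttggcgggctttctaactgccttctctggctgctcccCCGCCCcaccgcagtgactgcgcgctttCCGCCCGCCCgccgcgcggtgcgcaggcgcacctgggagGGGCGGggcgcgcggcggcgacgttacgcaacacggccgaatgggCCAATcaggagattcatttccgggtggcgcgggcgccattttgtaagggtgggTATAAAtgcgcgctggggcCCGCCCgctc
Srsf10: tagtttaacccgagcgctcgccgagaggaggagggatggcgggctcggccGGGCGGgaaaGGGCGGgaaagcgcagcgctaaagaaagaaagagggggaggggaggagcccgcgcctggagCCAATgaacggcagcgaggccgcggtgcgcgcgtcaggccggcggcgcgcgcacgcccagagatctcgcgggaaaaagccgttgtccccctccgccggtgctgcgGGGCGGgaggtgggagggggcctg

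The GC box was found 5 times before Srsf2, 3 times each before Hnrnpdl and Srsf10, and 1 time before Prpf38a. Copies of it overlap in Srsf2. The motifs CCGGAAGT, TGACGTCA and CACGTG, searched on both strands like the others, were not found in these 4 stretches. A CCAAT box was found before Prpf38a, Srsf2 and Srsf10, and TATAAA before Srsf2 alone of these 4. Over longer windows, from 250 bases before to 50 after the start, 52 of the 58 members had 71 windows, against 32851 windows of 27025 genes in all. The members' windows were richer in CpG, with a median of 25 CpG sites, against 7 sites over all windows. GGGCGG on either strand was found in 63.4% of the members' windows and in 35.7% of all windows. For CCAAT the shares of the members' windows and of all windows were 47.9% and 37.4%, for CCGGAAGT, the letters of an ETS-type motif, 16.9% and 3.89%, for CACGTG, an E-box, 15.5% and 7.15%, and for TGACGTCA, a cAMP response element, 2.82% and 1.79%. TATAAA was found in 9.86% of the members' windows and 13.6% of all. The letters TTCNNNGAA, shared by STAT sites, were found in 9.86% of the members' windows and 8.30% of all, and those of an interferon-stimulated response element in 1.41% of the members' windows and 3.44% of all. These are matches of letters and say nothing of binding.

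The values below are log2 intensities after background correction and quantile normalisation over the 12 arrays, of the brightest probe of each gene. A probe was called detected where its detection p-value was under 0.01. The arrays detected 9106 probes (E29) to 10719 probes (non-activated control), and the other 10 arrays 10093 to 10609. E29 thus had the fewest detected probes and the highest floor, a lowest detected value of 5.98 against 5.37 (non-activated control) to 5.58 (E23) on the other 11. Of 13 astrocyte markers with a probe, 11 were detected, and Gfap, the astrocyte filament gene, stood between 12.37 and 12.87 on all 12 arrays. None of 12 microglia and macrophage markers and none of 9 endothelial and fibroblast markers was detected on any array, while 4 of 10 neuron markers, 2 of 9 oligodendrocyte lineage markers and 6 of 9 neural stem cell markers were. The neuron markers Tubb3, Rbfox3, Snap25, Nefl, Nefm and Stmn2 and the oligodendrocyte lineage markers Mbp, Mog, Mag, Mobp, Olig2, Pdgfra and Cspg4 were detected on no array. In such bulk samples a smaller number of cells of a type and less RNA per cell cannot be told apart.

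**Figure D1:**
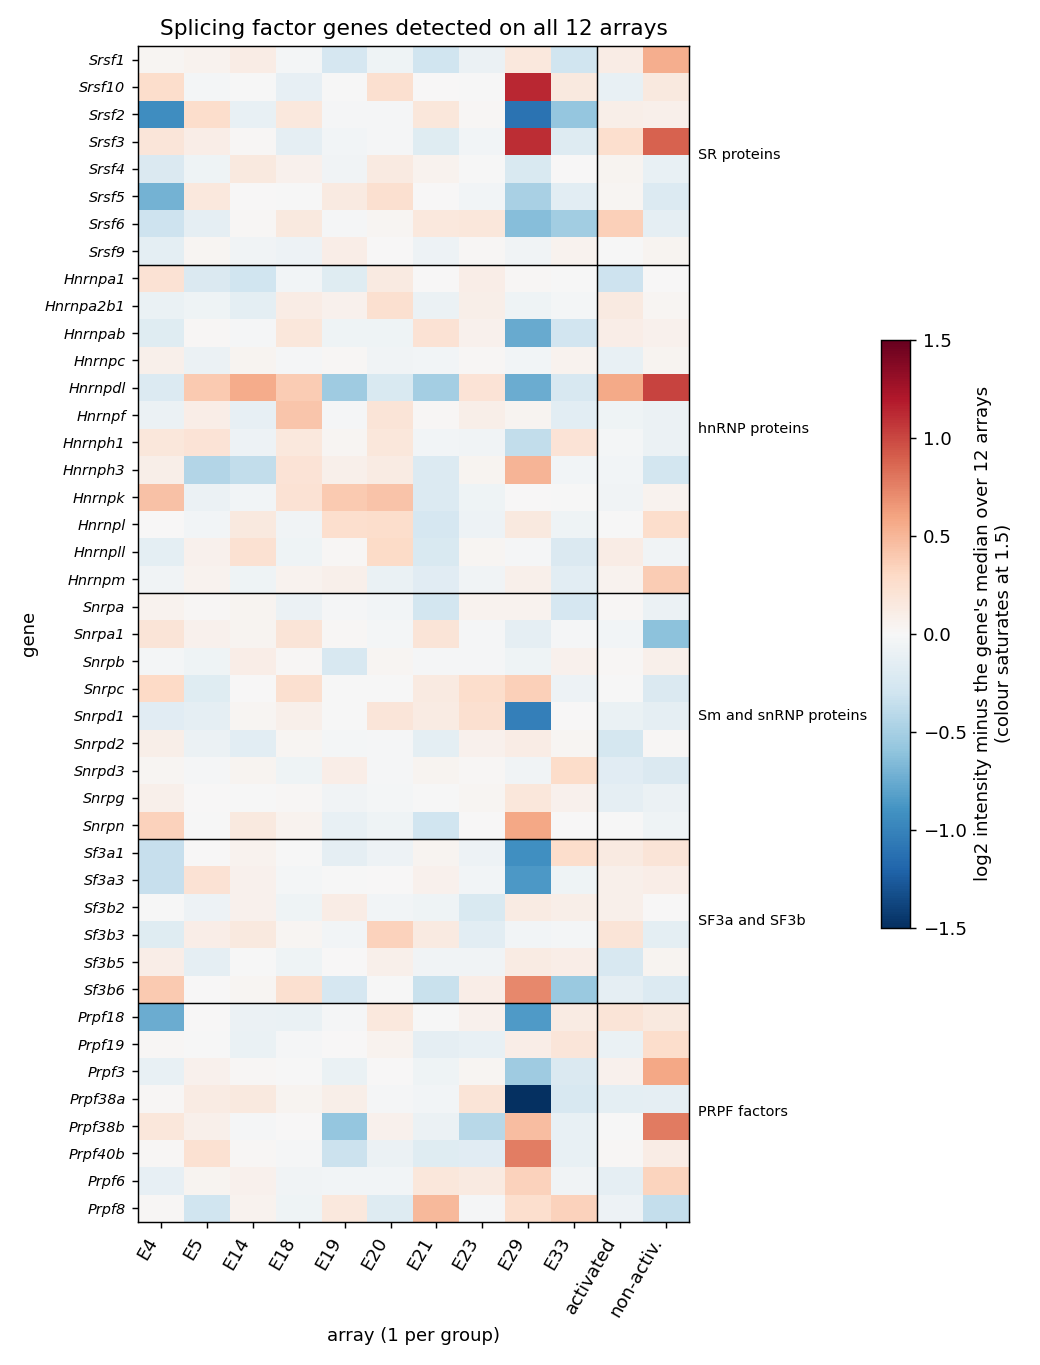
Log2 level of each member on each array minus that member's own median over the 12 arrays, in colour, for the members detected on all 12; rows are members grouped by role, and columns run from the compounds to the activated and the non-activated control. The E29 column holds most of the strong colours, in both directions, and most other columns are pale.

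Most of the splicing genes named by the rule were detected in these cells. Of the 58 members, 43 were detected on all 12 arrays, against 5912 of 16593 genes in all, 7 on 1 to 11 arrays and 8 on none. The 43 comprise 8 of 9 SR genes, 12 of 18 hnRNP genes, 9 of 11 Sm and snRNP genes, 6 of 9 SF3a and SF3b genes and 8 of 11 PRPF genes. The 8 whose brightest probe was detected on no array were Hnrnpa3, Hnrnpd, Hnrnpr, Prpf31, Prpf4b, Snrpb2, Snrpe and Srsf12, which bounds the signal of these probes and is no statement on the genes. Hnrnph2 was missed on 1 array and Sf3b4 on the E29 array alone. Sf3b1, the branch point subunit of SF3b, was detected on 2 arrays, Hnrnpu and Prpf39 on 2, Hnrnpul1 on 3 and Sf3a2 on 1.

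The levels of most members lay close together over the arrays. The median distance between the highest and the lowest array was 0.64 log2 units over the 43 members, against 0.91 over the 5912 genes detected on all arrays, and 0.52 against 0.61 without the E29 array. The flattest was Hnrnpc, a core protein of hnRNP particles, whose levels spanned 0.19 units, with 12.83 as the lowest and 13.02 as the highest. Srsf9, an SR protein gene, spanned 0.25 units, Snrpg, of the Sm ring, 0.31, and Snrpa, of the U1 snRNP, 0.34. Without E29, 39 of the 43 members stayed within 1 log2 unit (90.7%, against 84.8% of the 5912 genes), and the 4 that did not were Hnrnpdl (1.54), Prpf38b (1.36), Srsf2 (1.2) and Srsf3 (1.08). Hnrnpdl is a paralog of the AU-rich element binding protein gene Hnrnpd. Prpf38b is a paralog of Prpf38a, and Srsf2 and Srsf3 encode SR proteins.

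No member was called 2-fold different on activation with LPS and IFN-γ. Of 47 members measured (detected on at least 1 of the arrays compared), 0 differed 2-fold between the activated and the non-activated control, where 5.41% of 7498 genes did. At 1.5-fold, 0 members were higher and 2 were lower in the activated control, where 7.94% of all genes were higher and 8.20% lower. The median member difference was 0.01 log2 units, beside -0.04 over all genes. Scaling the arrays to reference genes in place of quantile normalisation moved the median of all genes to -0.30 and that of the members to -0.24, so that signs of small differences depend on the scaling.

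The members that were 1.5-fold lower on activation were Prpf38b and Srsf3. Prpf38b stood at 6.50 in the activated control and 7.29 in the non-activated control. On the compound arrays it stood at 6.68 (E4), 6.58 (E5), 6.50 (E14), 6.52 (E18), then 5.93 (E19), 6.57 (E20), 6.42 (E21), 6.09 (E23), 6.97 (E29) and 6.40 (E33). All 11 activated arrays thus lay below the non-activated control, and the activated control was lower by 1.73-fold (log2 difference -0.79). Srsf3, the gene of a short SR protein that also takes part in mRNA export, stood at 8.07 in the activated control and 8.70 in the non-activated control. On the compound arrays it stood at 8.0 (E4), 7.92 (E5), 7.84 (E14), 7.68 (E18), then 7.78 (E19), 7.80 (E20), 7.63 (E21), 7.78 (E23), 8.92 (E29) and 7.62 (E33). Only the E29 array lay above the non-activated control (log2 difference 0.22), and it lay below it with scaling to a common median or to reference genes (-0.21 and -0.32). The activated control was lower by 1.54-fold (log2 difference -0.63). A second Srsf3 probe gave -0.96 for activation.

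The other members that were detected in both controls stayed within 1.5-fold on activation. The differences of Prpf39 and Hnrnpu are bounds, and their full size is unknown. Below the non-activated control lay Prpf3 (log2 difference -0.52), of the U4/U6 snRNP, Prpf6 (-0.47), which bridges the tri-snRNP, Hnrnpdl (-0.45), Srsf1 (-0.43), the founding SR protein gene, Prpf19 (-0.36), the ubiquitin ligase of the PRPF19 complex, Hnrnpm (-0.33), Hnrnpa1 (-0.32) and Prpf39 (-0.30, a bound, since it was detected in the non-activated control only). Above it lay Snrpa1 (0.58, or 1.49-fold), a U2 snRNP protein gene, Srsf6 (0.50), Hnrnph2 (0.46), Sf3b3 (0.33), Prpf8 (0.28), the scaffold of the catalytic core, Srsf5 (0.24), Hnrnph3 (0.23), Hnrnpu (0.23, a bound, since it was detected in the activated control only), Snrpc (0.20) and Hnrnpll (0.16). With reference-gene scaling 18 of the 24 members above the non-activated control turned to the other side, none of which had lain more than 0.28 log2 units above it, among them Prpf8, Hnrnph3, Snrpc, Hnrnpll and Prpf18 (0.05). The PRPF group had the largest share of its members on 1 side, 7 of 9 below the non-activated control with a median of -0.30, where 44.3% of all genes lay above it. The medians were 0.03 for hnRNP, 0.04 for SF3a and SF3b, 0.05 for Sm and snRNP and -0.02 for SR genes.

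On the E29 array more members passed 2-fold than on any other compound array. Most of these were lower, though 24 of the 45 measured members lay above the activated control. The share of members past 2-fold was smaller than that of all genes, a gap that lay mainly on the higher side. Against the activated control 45 members were measured, and 1 was 2-fold higher and 6 were 2-fold lower, 15.6% of them, where 25.8% of 7152 genes differed 2-fold, 10.6% higher and 15.1% lower. The 6 lower ones were Prpf38a, Hnrnpdl, Srsf2, Sf3a1, Prpf18 and Srsf6, and the higher one was Srsf10. At 1.5-fold, 4 members were higher and 10 lower, 31.1% in all, where 53.3% of all genes did, 31.1% of all genes being higher and 22.3% lower. The median of all genes was 0.25 log2 units above 0 in this comparison, that of the members 0.04. The split of all genes depends on the scaling: 41.2% of the genes that differed 2-fold were higher with quantile normalisation, and 9.23% when arrays were scaled to a common median. With that scaling, 0 members were 2-fold higher, and 19.6% of the members passed 2-fold in either direction, beside 23.3% of all genes.

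**Figure D2:**
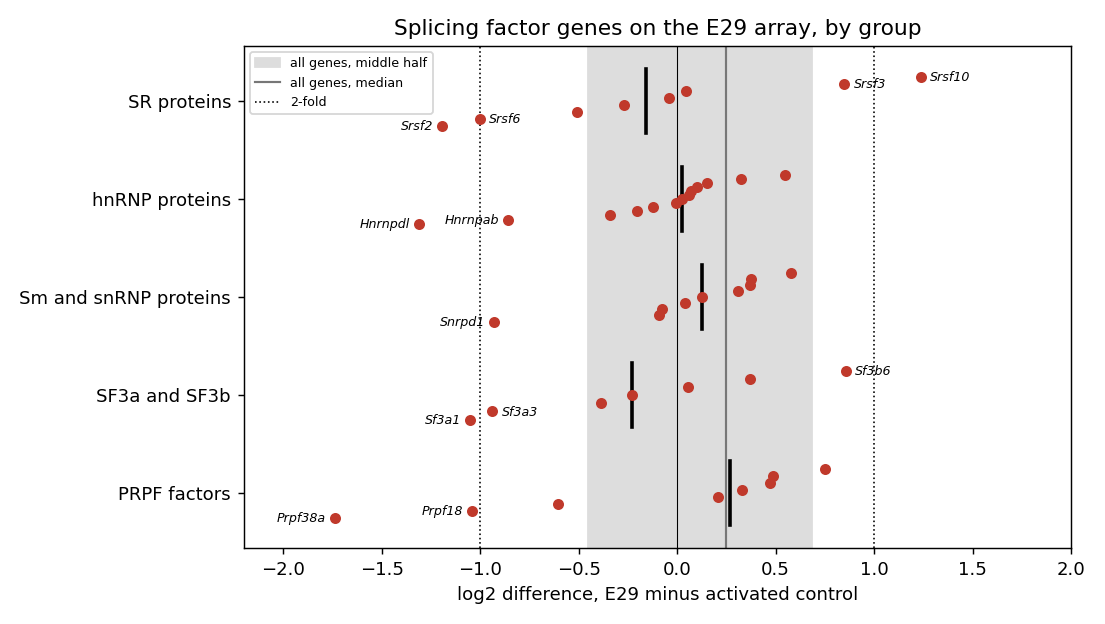
Log2 difference of each measured member between E29 and the activated control, by role, each red point 1 member and each black bar the median of a role; dotted lines mark 2-fold, and the grey line and band the median and the middle part (between the quartiles) of all genes. The outermost points are named, with Prpf38a at -1.74 the lowest and Srsf10 at 1.24 the highest.

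Among the SR genes, E29 went with lower levels of some and higher levels of others. Srsf2, whose protein is a marker of nuclear speckles, stood at 10.87 with E29, against 12.07 in the activated control. Its values on the other arrays were 11.05 (E4), 12.25 (E5), 11.86 (E14), 12.14 (E18), then 11.97 (E19), 11.97 (E20), 12.15 (E21), 11.99 (E23), 11.40 (E33) and 12.06 (non-activated control). E29, E4 and E33 were thus the only arrays under 11.86, and E29 was 2.29-fold below the activated control (log2 difference -1.19). Another probe of Srsf2 gave -0.78. Srsf6, which like other SR proteins binds exonic enhancers, stood at 10.25 with E29, against 11.25 in the activated control and 10.76 in the non-activated control, a 2.0-fold difference (-1.0) at the edge of the threshold. Srsf5 and Srsf4 stayed within 1.5-fold, with log2 differences of -0.51 and -0.27.

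Srsf10, which encodes an SR protein known to act as a general repressor when dephosphorylated, stood at 9.07 with E29, against 7.83 in the activated control. Its other values were 8.20 (E4), 7.91 (E5), 7.94 (E14), 7.82 (E18), then 7.94 (E19), 8.19 (E20), 7.95 (E21), 7.94 (E23), 8.09 (E33) and 8.09 (non-activated control). E29 was the highest of all arrays, 2.36-fold above the activated control (log2 difference 1.24). The rise was read by the brightest probe only: of the other probes of Srsf10, which the platform assigns to another transcript record, 1 gave 0.19, and 1 gave -0.05 as a bound, being undetected with E29. Srsf3 stood at 8.92 with E29, against 8.07 in the activated control (log2 difference 0.85, or 1.80-fold), and its second probe gave 0.90. Of the 8 SR genes measured, 5 lay below the activated control, where 61.2% of all genes lay above it, and the median was -0.16.

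Of 13 hnRNP genes measured with E29, 1 was 2-fold lower and none was 2-fold higher. Hnrnpdl stood at 8.02 with E29, the lowest of all arrays, against 9.33 in the activated control and 9.78 in the non-activated control, and E29 was 2.48-fold below the activated control (log2 difference -1.31). Its second probe, also detected on all 12 arrays, stood at 8.87 with E29, against 8.72 in the activated control, a difference of 0.15 in the other direction. Hnrnpab, an A/B-type hnRNP gene, was 1.81-fold lower (-0.86), and Hnrnph3 lay at 0.55. Hnrnpa2b1, which takes part in RNA transport, lay at -0.20 by its brightest probe, while a probe assigned to another of its transcript records was 2.12-fold higher (1.08). Hnrnpk lay at 0.06 by its brightest probe and at 0.72 and 0.74 by its others. The median of the group was 0.03.

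Among the snRNP core genes, Snrpd1, which encodes the D1 protein of the Sm ring, was the one that differed most with E29. It stood at 9.94 with E29, against 10.87 in the activated control. Its other values were 10.79 (E4), 10.83 (E5), 10.996 (E14), 11.04 (E18), then 10.95 (E19), 11.14 (E20), 11.08 (E21), 11.20 (E23), 10.98 (E33) and 10.82 (non-activated control). The 11 other arrays thus lay between 10.79 and 11.20 and E29 lay below all of them, 1.91-fold below the activated control (log2 difference -0.93), and a second Snrpd1 probe was 2.15-fold lower (-1.10). None of the other ring genes measured was 1.5-fold lower: Snrpd2 lay at 0.37, and Snrpd3, Snrpb and Snrpg at 0.13, -0.08 and 0.31. Snrpn, the gene of an imprinted and brain-rich Sm B-like protein, lay at 0.58 (1.49-fold), and its second probe at 0.94. Snrpc, of the U1 snRNP, lay at 0.37 and on the other side with scaling to a common median or to reference genes (-0.14 and -0.04). The group's median was 0.13.

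The subunits of SF3a and SF3b went to both sides. Sf3a1 stood at 8.21 with E29, against 9.26 in the activated control, 2.07-fold lower (log2 difference -1.05), and Sf3a3 was 1.92-fold lower (-0.94). Both encode SF3a subunits. Sf3b6, whose protein contacts the branch point, was 1.81-fold higher (0.86). Sf3b4 was the one member detected on every array but E29, with 6.58 (E4), 6.41 (E5), 6.31 (E14), 6.54 (E18), then 6.78 (E19), 6.96 (E20), 6.53 (E21), 6.77 (E23), 6.08 (E33), 6.37 (activated control) and 6.33 (non-activated control). Its E29 value of 5.42 lay under the floor of that array, so that its level was at least 1.31-fold lower than in the activated control, and a second Sf3b4 probe lay at 0.51 in the other direction. The group's median was -0.23.

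The largest difference of any member was that of Prpf38a, whose protein joins the spliceosome before its activation. It stood at 7.54 with E29, against 9.27 in the activated control. Its other values were 9.43 (E4), 9.54 (E5), 9.56 (E14), 9.46 (E18), then 9.51 (E19), 9.40 (E20), 9.38 (E21), 9.61 (E23), 9.18 (E33) and 9.29 (non-activated control). The 11 other arrays lay within 9.18 to 9.61, and E29 was 3.33-fold below the activated control (log2 difference -1.74). A second Prpf38a probe, detected on every array but E29, was at least 1.64-fold lower. Prpf18, a factor of the second catalytic step, stood at 8.76 with E29, against 9.81 in the activated control (2.06-fold lower, -1.04). Prpf3 was 1.52-fold lower (-0.60). Above the activated control lay Prpf40b (0.75, or 1.68-fold), a U1-associated factor, Prpf6 (0.48) and Prpf38b (0.47). With 5 of 8 measured members above the activated control, where 61.2% of all genes lay above it, the median of the PRPF group was 0.27.

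**Figure D3:**
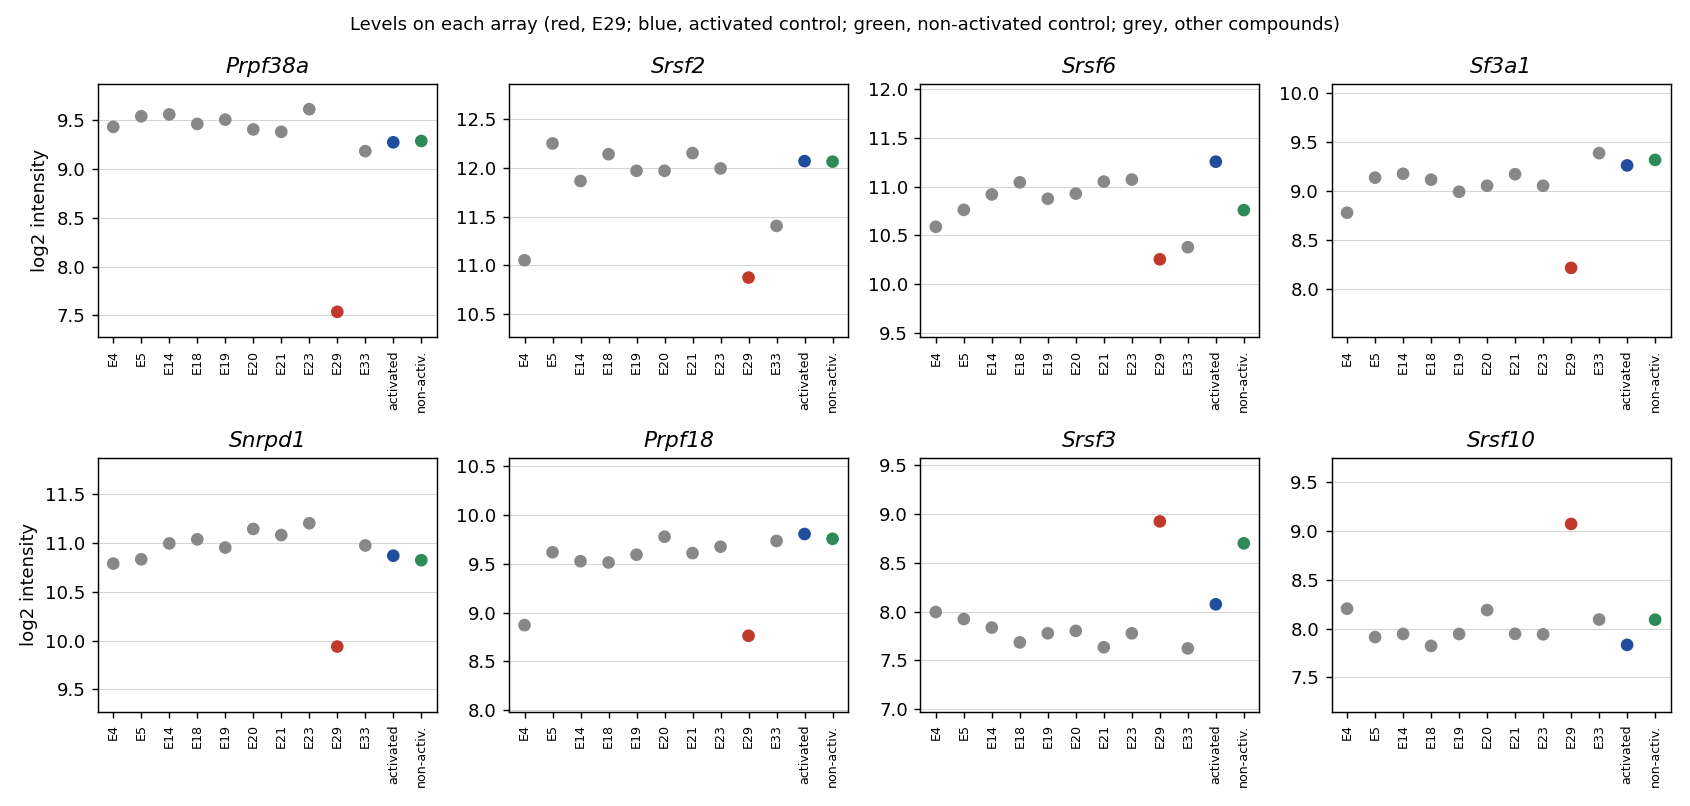
Log2 intensity of 8 members on each of the 12 arrays, 1 point an array, with the compounds from left to right followed by the activated control (blue) and the non-activated control (green); E29 is red and the other compounds grey, and each panel spans the same height. Prpf38a, Snrpd1 and Sf3a1 are lowest on the E29 array, Srsf2 and Prpf18 are low on those of E29 and E4, Srsf6 on those of E29 and E33, and Srsf3 and Srsf10 are highest on E29.

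Markers of other cell types moved on the E29 array too. The summed linear intensity of the 4 detected neuron markers was 3821 with E29, against 2659 in the activated control and 2493 to 3180 on the other 9 compound arrays, and Syt1, the synaptic vesicle calcium sensor gene, was 2.86-fold higher than in the activated control. Of these 4 markers 3 were detected with E29 and 3 in the activated control. The sum of Cnp and Olig1, the detected oligodendrocyte lineage markers, was 5239 with E29, against 2888 in the activated control. That of the 11 astrocyte markers was 50325, against 39940 in the activated control. Of all genes 61.2% lay above the activated control on the E29 array, with a median of 0.25 log2 units, so these sums are not free of the shift of all genes. The neural stem cell marker sum was 19694 with E29, against 19618 in the activated control. Of its 6 markers 3 were 2-fold lower (Hes1, Notch1 and Sox2), where 15.1% of all genes were. Nes, Fabp7 and Vim were not called lower, and the sum did not fall. The part of the markers in the members' differences, and that of the lower number of detected probes, was not tested.

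All compound comparisons share the activated control array, so E29 was also set against other arrays. Against the other 10 activated arrays, by their median, 2 members were 2-fold higher and 3 lower, 11.1% of 45, where 8.60% of 7116 genes were higher and 14.1% lower, 22.7% in all. They were Srsf3 (log2 difference 1.13), Srsf10 (1.13), Prpf38a (-1.91), Srsf2 (-1.11) and Snrpd1 (-1.05). Sf3a1 (-0.91), Prpf18 (-0.85) and Srsf6 (-0.67) stayed under 2-fold there. Hnrnpdl lay at -0.75, its level on the other 9 compound arrays being at or under that of the activated control. Against the non-activated control, 45 members were measured, and 0 were 2-fold higher and 5 lower, where 7.93% of 7102 genes were higher and 14.1% lower. The 5 were Hnrnpdl (-1.76, or 3.38-fold), Prpf38a (-1.75), Srsf2 (-1.19), Prpf3 (-1.12) and Sf3a1 (-1.11), and the highest was Srsf10 (0.98). Counted by range, E29 lay outside the other 11 arrays for 25 of 43 members, 12 below and 13 above, where it did for 69.2% of the 5912 genes, 20.5% below and 48.7% above.

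With E4, of 46 measured members 1 was 2-fold lower and none was 2-fold higher against the activated control, where 0.495% of 7479 genes were higher and 2.87% lower. This was Srsf2, at 11.05 with E4, against 12.07 in the activated control (log2 difference -1.02, or 2.02-fold), and its other well detected probe gave -0.69. Against the other activated arrays, by their median, it was 1.90-fold lower (-0.93). At 1.5-fold, 5 members were lower, where 9.59% of all genes were: Srsf2, Prpf18 (-0.93), Hnrnpdl (-0.77), Srsf5 (-0.74) and Srsf6 (-0.67). Against the other activated arrays, by their median, Srsf2, Prpf18 (-0.74) and Srsf5 (-0.72) were still 1.5-fold lower, while Srsf6 (-0.34) and Hnrnpdl (-0.19) were not. Srsf5, an SR protein gene, stood at 11.87 with E4, its lowest level, against 12.61 in the activated control, and its second probe gave -0.64. Of 8 SR genes, 7 lay below the activated control, where 54.1% of all genes lay above it, and their median was -0.20. Srsf10 alone lay above it (0.37).

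The remaining members that were detected on both arrays stayed within 1.5-fold with E4. Hnrnpu was undetected with E4, and its -0.10 is a bound. Sf3a1 (log2 difference -0.48), Sf3a3 (-0.42), Sf3b3 (-0.37), Hnrnpab (-0.28) and Srsf4 (-0.26) lay below the activated control. Above it lay Sf3b6 (0.54), Hnrnpa1 (0.53), Hnrnpk (0.50), Snrpn (0.35), Snrpd2 (0.34), Sf3b5 (0.34), Snrpc (0.31), Snrpa1 (0.23) and Sf3b4 (0.21, which turned to the other side with scaling to a common median or to reference genes). Of 9 Sm and snRNP genes, 7 lay above, with a median of 0.21. The summed neuron marker level was 2930 with E4, against 2659 in the activated control. That of the neural stem cell markers was 18263, against 19618 in the activated control. Of these markers Sox2 and Notch1 were 2-fold lower, where 2.87% of all genes were, and Nes, Fabp7, Hes1 and Vim were not called lower. The part of the markers was not tested.

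With E33, none of 46 members was 2-fold higher or lower, where 1.00% of 7389 genes were. At 1.5-fold, 3 members were lower, where 4.85% of all genes were: Srsf6 (10.38 with E33, against 11.25 in the activated control, log2 difference -0.88), Hnrnpdl (-0.80) and Srsf2 (-0.66). Against the other activated arrays, by their median, all 3 stayed under 1.5-fold, with Srsf2 at -0.58, Srsf6 at -0.54 and Hnrnpdl at -0.24. In the comparison with the activated control then followed Srsf3 (-0.45), Sf3b6 (-0.42), Srsf1 (-0.41), Hnrnpab (-0.39), Hnrnpll (-0.32), Sf3b4 (-0.29) and Prpf3 (-0.28). On the upper side lay Snrpd3 (0.45), Prpf8 (0.43), Sf3b5 (0.34), Hnrnpa1 (0.31), Snrpd2 (0.29), Prpf19 (0.29), Hnrnph2 (0.28), Srsf10 (0.26), Hnrnph1 (0.24) and Snrpg (0.21).

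With the other 7 compounds, Hnrnpdl was the 1 member that passed 2-fold, and it did so only against the activated control. It stood at 8.24 with E19 and 8.26 with E21, against 9.33 in the activated control (log2 differences -1.09 and -1.07), where 0.356% of 7304 genes were 2-fold lower with E19 and 0.0136% of 7370 with E21, Hnrnpdl being the single gene in that count. Against the other activated arrays, by their median, it was 1.44-fold lower with E19 (-0.53) and 1.42-fold lower with E21 (-0.51). Its level was 8.53 with E20 (-0.79), 8.97 with E23 (-0.36), 9.15 with E18, 9.16 with E5 and 9.33 with E14. Thus E19, E20, E21, E29, E33 and E4 lay between 8.02 and 8.56, and the other compounds between 8.97 and 9.33. The second Hnrnpdl probe gave smaller differences on the same side with E4 (-0.28), E19 (-0.11), E20 (-0.091) and E33 (-0.05), and lay on the other side with E21 (0.28) and E29 (0.15). On activation both probes lay below the non-activated control, at -0.45 and -0.58.

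Apart from Hnrnpdl with E19, E20 and E21, Hnrnph2 with E14 and Sf3b4 with E20, all members detected on both arrays stayed within 1.5-fold with these 7 compounds. Where Hnrnpu, Hnrnpul1, Prpf39 or Sf3b1 was detected on only 1 of the arrays compared, the difference from the activated control is a bound. The lowest and the highest member were Srsf6 (log2 difference -0.49) and Prpf38a (0.27) with E5, and Hnrnph2 and Prpf38a (0.29) with E14, where Hnrnph2 was undetected and its -0.64 is a bound. With E18 they were Srsf3 (-0.39) and Hnrnpf (0.48), with E19 Hnrnpdl and Hnrnpk (0.46), and with E20 Hnrnpdl and Sf3b4 (0.59). With E21 they were Hnrnpdl and Prpf8 (0.56), and with E23 Prpf38b (-0.41) and Sf3b4 (0.41). No member was 2-fold different with E5, E14, E18, E20 or E23, where 0.0950% (E5), 0.285% (E14), 0.301% (E18), 0.0408% (E20) and 0.0415% (E23) of the genes measured were. Srsf6, Hnrnpdl, Prpf3 and Prpf18 lay below the activated control on all 10 compound arrays by their brightest probes. Hnrnpa1, Hnrnpc, Prpf6, Sf3b5, Snrpd2, Snrpd3 and Snrpg lay above it on all 10. The activated control held the highest level of Srsf6 and Prpf18 among all 12 arrays. It held the lowest of Hnrnpa1, Hnrnpc, Prpf6, Sf3b5, Snrpd2 and Snrpg. All these orders, on either side, rest on the 1 activated control array.

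**Figure D4:**
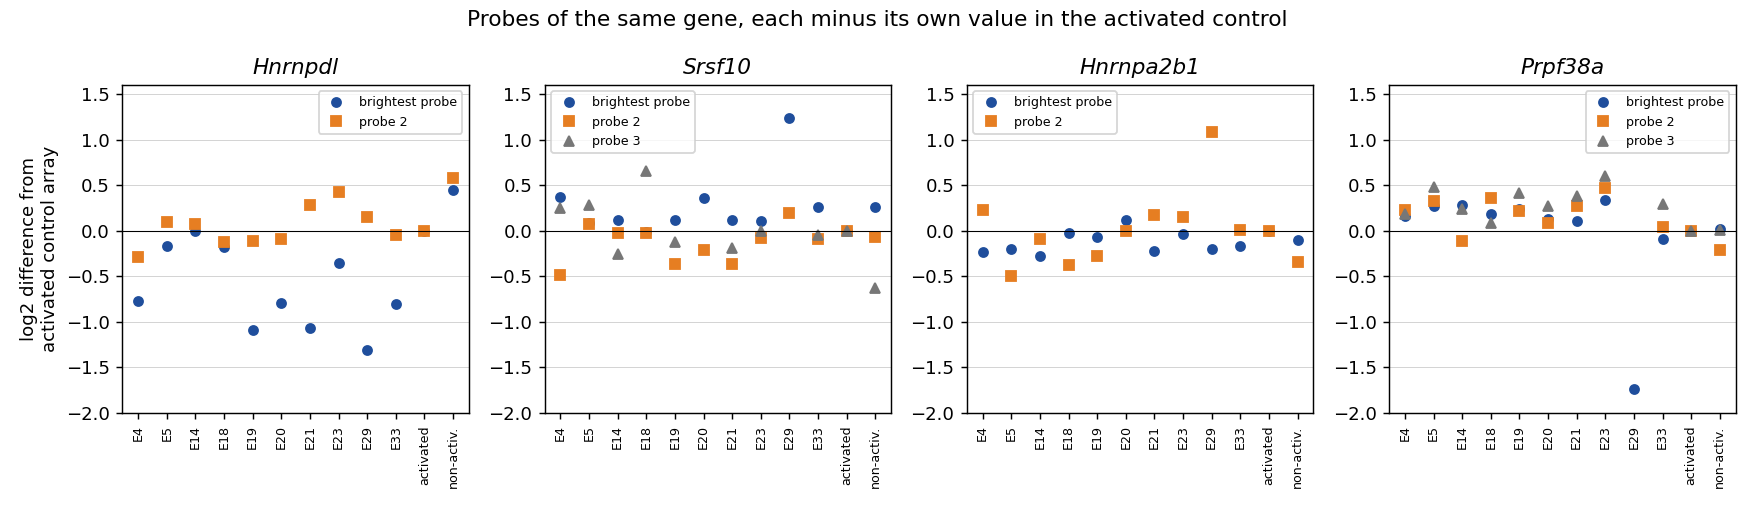
Log2 difference of each array from the activated control for probes of Hnrnpdl, Srsf10, Hnrnpa2b1 and Prpf38a, the brightest probe as blue circles and others as squares or triangles; points are drawn only where the probe was detected on both arrays. On the E29 array the brightest Hnrnpdl probe lies at -1.31 and its other probe at 0.15, and the brightest Srsf10 probe at 1.24 and the next at 0.19.

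Probes of 1 gene did not always read the same difference. The 58 members had 108 probes, and 30 members had more than 1. With E29, 21 of 29 other probes that could be measured, of 21 genes, lay on the same side of the activated control as the brightest probe of their gene. For genes past 1.5-fold this held for 8 of 10 other probes, and the exceptions were those of Hnrnpdl and Srsf10. With E4, E19, E20 and E33 all other measured probes of genes past 1.5-fold lay on the same side, 4, 1, 2 and 3 probes, and with E21 the 1 such probe, of Hnrnpdl, did not. Srsf6, Sf3a1, Prpf18 and Prpf38b rest on 1 probe each, as do Sf3a3, Hnrnpab, Hnrnph3, Prpf6 and further members.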

How the data were processed

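Total RNA of 12 samples, 400 ng each, was amplified (in vitro transcription, 12 h), labelled with biotin and read on 1-colour Illumina bead arrays, per the labels' protocols. One deposited table gives, per the file headers, the non-normalised mean bead intensity of every probe. Beside each intensity the authors deposited a detection p-value. The submitters' processing notes name GenomeStudio 2010.3, and the sources used here do not say whether it subtracted background. The authors' processed intensities, in another deposited table, are linear, with a floor of 10 that held 45.1% to 45.2% of probes and medians of 14.9 to 15.0 per array. For 12 of 12 samples its column matched the sample's own raw column best and ran in the same direction. How it was normalised is unknown.

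The nec function of limma 3.58.1 (R 4.3.3) corrected the background of the raw intensities from the detection p-values and added an offset of 16. The log2 values were then quantile-normalised. The normalisation was tested on arrays simulated from the activated control, with known changes in a small set of bright probes on 1 array. That setting does not cover differences as widespread as those on the E29 array. The platform annotation gave 1 symbol to 23978 of 25697 probes, several to 0 and none to 1719. All 58 members matched the RefSeq table of GRCm38.p6 by gene ID, and 0 symbols differed. The brightest probe (mean over the 12 arrays) stood for a gene. Measured genes had a detection p-value under 0.01 on 1 or more of the arrays set against each other. Values not detected were replaced by the array's lowest detected value where they lay below it, which makes the difference a bound, and genes whose direction this left unknown were dropped. A call is a difference of 2-fold, with 1.5-fold as a second rule. With 1 array a group there is no test between groups, and the number of arrays limits the precision. Python 3.11.15, pandas 2.3.3, numpy 2.4.6 and matplotlib 3.10.9 made the tables and figures.

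Any member could be named. In activation, E29, E4 and E33, members past 2-fold were named and then the next largest, up to 10 in a direction. For each other compound the highest and the lowest member were named. Values on all arrays were given for the 6 members farthest on the E29 array from the median of the other 10 activated arrays, and for the 2 farthest in activation. The members, lists and rules were chosen with earlier results of these data known. Alternatives were another normalisation, background correction, scaling, offset, detection limit, probe rule, control array and the processed table. Protein features were not used here.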

Additional observations from a re-analysis of the deposited data

How the results depend on the processing

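Of 178 alternatives for the members' counts and medians, 133 gave a count within 1.5 times, or a median within the spread between arrays (0.0227 log2 units), of the value reported. These 133 include counts of 0 that stayed 0. The 15 differences of single members past 2-fold were picked for their size on these same arrays, which made a change of sign unlikely. Of 148 alternatives for them, 0 changed sign. Smaller differences did: under at least 1 other scaling, 20 of 47 members changed side for activation, 14 of 45 for E29 against the non-activated control and, against the activated control, 12 of 45 for E29, 8 of 46 for E4 and 12 of 46 for E33. The 148 alternatives all read the brightest probe, alone or within a median over the gene's probes. They thus do not cover the reading of another probe alone. Read alone, another probe of Hnrnpdl (with E29 and E21) and 1 of Srsf10 (with E29) lay on the other side. No paired analysis was possible because every group has 1 array and no test was run, and protein features were not run. With E29 against the activated control, the 1 member 2-fold higher became 2 against the other activated arrays, and 0 without background correction, with scaling to a common median, with the median over detected probes or counted from the median of all genes. The 6 lower became 3 against the other activated arrays, without background correction or with an offset of 50. Other settings raised the share of members past 2-fold in either direction from 15.6%, to 17.8% with reference genes. It rose to 19.6% with a common median and to 20% counted from the all-gene median, all of these members being lower. The shares of all genes with these 2 settings were 23.3% and 23.2%. The median of 0.04 became -0.21 counted from the median of all genes, 0.11 over detected probes, -0.10 with a common median and -0.019 with reference genes. With E29 against the non-activated control, the 5 lower became 8 from the all-gene median, 3 without background correction and 9 with reference genes. The median of -0.08 became -0.24 from the all-gene median, -0.044 at a detection p under 0.05, 0.046 over detected probes, -0.058 without a detection filter, -0.20 with a common median and -0.31 with reference genes. With E4, the 1 lower became 0 against the other activated arrays, with the processed table, over detected probes or without background correction, 3 with a common median and 2 with reference genes. The median of -0.02 became -0.052 from the all-gene median, 0.028 over detected probes, 0.011 without a detection filter, -0.13 with a common median and -0.10 with reference genes. With E33, the 0 lower became 1 with a common median, and the median of -0.06 became -0.16 with a common median and -0.013 with reference genes. In activation, the 0 lower became 1 against the median of all activated arrays and 1 with reference genes. The median of 0.01 became -0.044, 0.049, -0.018 and -0.24 against the activated arrays, from the all-gene median, with a common median and with reference genes. With the other 7 compounds, the 2 lower became 0 against the other activated arrays, over detected probes or without background correction, and 1 with an offset of 50. The cause of these moves was not tested. The share of higher genes among all 2-fold calls was 36.1% for E29 against the non-activated control, 14.7% for E4, 21.6% for E33 and 59.6% for activation. It was 1.84%, 4.43% and 14.1% with a common median for the first 3, and 39.2% for E33 and 27.8% for activation with reference genes. With 1 array a group, an effect of the array cannot be told apart from that of the compound, and decreases of dim genes under the floor of an array were not detectable.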

Other observations

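Other genes of the splicing pathway, from 9 lists that exclude the members, were read on the same arrays. Of 162 listed genes 141 had a probe. On activation 113 were measured and 0 differed 2-fold, where 5.41% of all genes did. With E33 0 of 113 and with E4 1 of 112 differed 2-fold, where 1.00% and 3.37% of all genes did. With E4 this was the kinase gene Dyrk1a, at 7.15 with E4, against 5.87 in the activated control. With E29, 2 of 111 measured genes were 2-fold higher and 13 lower than in the activated control, where 10.6% of all genes were higher and 15.1% lower, and the median was 0.06 log2 units.

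The lower genes on the E29 array included 5 of 13 measured genes of the SMN complex and snRNP assembly, which load Sm proteins onto small nuclear RNAs. Among all genes 15.1% were 2-fold lower on that array. Smn1, the gene of the SMN protein, stood at 7.92 with E29, against 10.34 in the activated control and 10.44 in the non-activated control (5.36-fold lower than in the activated control). Gemin4, of the same complex, stood at 6.14 with E29, against 8.77 in the activated control (6.17-fold lower), and the helicase gene Ddx20 was at least 5.07-fold lower. Coil, the Cajal body scaffold gene, was 2.11-fold lower and Tgs1, which trimethylates the snRNA cap, 2.03-fold. The median of this list was -0.30. The SR protein kinase genes Clk3 and Clk4 were 2.98-fold and 2.12-fold lower with E29, while the kinase gene Srpk2 was 2.05-fold higher. Casc3, a core gene of the exon junction complex, and Nxt1, of the mRNA export receptor, were 5.83-fold and 6.26-fold lower. Cwc22 was 3.05-fold and Lsm10 2.37-fold lower, and Dhx8 and Rbfox2 at least 2.73-fold and 2.04-fold lower. Rbmx, an hnRNP-like gene, was 2.19-fold higher. None of 10 SR-related protein genes and none of 8 genes of the recognition of the 3′ splice site differed 2-fold with E29, where 25.8% of all genes did.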
